A study of Mus musculus with 16 samples.

Results

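The ctl line is a line of immortalized mouse embryonic fibroblasts that is heterozygous for a conditional allele of Sdhc, which encodes a membrane subunit of succinate dehydrogenase, and its late libraries form 2 sets. Day 16 replicates 2 and 3 make up the first set, and day 16 replicate 1 and day 20 make up the second, 2 libraries a side. These 4 libraries are 4 of the 8 ctl libraries and of the 16 in the series. The sets were selected on the log2(FPKM + 1) values of these same libraries, which stood apart, so the difference between them is described here and not tested. Of 24485 gene IDs, 12357 had a mean of at least 1 FPKM (fragments per kilobase of transcript, scaled to library size) over the 4 libraries and were compared. The difference of a gene is the mean log2(FPKM + 1) of replicates 2 and 3 minus that of replicate 1 and day 20, a scale that understates the change of low genes.

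The ctl line has the genotype R26M2rtTA/+;TetOcre;Sdhcfl/wt, and the second line of the study, called exp, is R26M2rtTA/+;TetOcre;Sdhcfl/fl. Both carry a transactivator that doxycycline switches on and a Cre recombinase under its control, and all groups used here other than day 0 had been in 1 µg/mL doxycycline for the stated days. The cells were grown in low-glucose DMEM with 10% FBS, and a single line stands for each genotype, which leaves line and genotype confounded: they cannot be told apart. Polyadenylated RNA was sequenced from 3 biological replicates of each line at day 16, and from 1 library of each line on days 0, 5, 9 and 12 and on day 20. The labels do not say how those replicates were grown or harvested, and the second set mixes 2 days.

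Mammalian cells adjust transcription to what their medium provides. When membrane cholesterol is low, SREBP-2 moves from the endoplasmic reticulum to the nucleus and switches on cholesterol synthesis and uptake. When amino acids run short or the endoplasmic reticulum is stressed, the kinases of the integrated stress response favour translation of ATF4, which switches on amino acid synthesis, transport and tRNA charging. Serum growth factors act on immediate-early genes and, through FoxO factors, on genes of quiescence.

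Promoter windows of 5 members with large differences in the sterol and ATF4 lists are shown. They let elements be seen that their regulators, or a partner of these, are known to read. The windows run from 250 bases before to 50 after the gene start, from RefSeq on GRCm38.p6, 5′ to 3′ on the gene's strand. In the sterol synthesis genes Msmo1 (chr8:64733529-64733828, minus strand) and Lss (chr10:76531355-76531654, plus strand), capitals mark the CCAAT box, read on either strand, which the SREBP partner NF-Y binds. In the ATF4 targets Chac1 (chr2:119350992-119351291, plus strand), Trib3 (chr2:152344011-152344310, minus strand) and Asns (chr6:7693160-7693459, minus strand), capitals mark TGATGNAA on either strand, a core of the element that C/EBP and ATF4 bind.
Msmo1: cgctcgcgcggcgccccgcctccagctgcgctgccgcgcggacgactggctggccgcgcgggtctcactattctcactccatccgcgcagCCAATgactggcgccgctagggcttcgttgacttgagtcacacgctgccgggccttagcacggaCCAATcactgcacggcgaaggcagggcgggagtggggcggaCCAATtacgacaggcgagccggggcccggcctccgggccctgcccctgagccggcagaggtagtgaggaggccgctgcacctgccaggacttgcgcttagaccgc
Lss: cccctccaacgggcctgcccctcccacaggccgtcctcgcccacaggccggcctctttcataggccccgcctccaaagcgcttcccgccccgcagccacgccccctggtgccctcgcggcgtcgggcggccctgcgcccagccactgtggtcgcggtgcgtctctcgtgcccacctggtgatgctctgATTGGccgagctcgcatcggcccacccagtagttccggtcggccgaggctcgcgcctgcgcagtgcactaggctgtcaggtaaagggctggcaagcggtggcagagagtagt
Chac1: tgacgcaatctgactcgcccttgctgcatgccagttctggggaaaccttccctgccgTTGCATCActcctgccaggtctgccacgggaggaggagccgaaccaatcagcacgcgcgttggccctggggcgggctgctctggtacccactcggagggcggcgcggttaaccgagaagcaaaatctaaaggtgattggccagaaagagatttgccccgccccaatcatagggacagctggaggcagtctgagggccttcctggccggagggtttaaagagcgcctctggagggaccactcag
Trib3: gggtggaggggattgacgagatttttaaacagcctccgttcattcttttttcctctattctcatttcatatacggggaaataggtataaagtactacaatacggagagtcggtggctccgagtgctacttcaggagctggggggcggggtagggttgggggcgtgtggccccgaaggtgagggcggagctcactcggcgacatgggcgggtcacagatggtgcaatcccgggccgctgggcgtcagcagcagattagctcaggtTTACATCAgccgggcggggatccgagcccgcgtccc
Asns: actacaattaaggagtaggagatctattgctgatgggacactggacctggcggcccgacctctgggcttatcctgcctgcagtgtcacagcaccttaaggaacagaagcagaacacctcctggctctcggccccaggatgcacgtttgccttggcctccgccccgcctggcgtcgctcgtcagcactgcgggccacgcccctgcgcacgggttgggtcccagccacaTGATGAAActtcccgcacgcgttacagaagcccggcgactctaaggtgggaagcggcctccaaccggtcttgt
CCAAT was found in 14 of the 15 sterol synthesis genes that have a window and in 41.1% of all 27025 genes with a window (37.4% of all 32851 windows). TGATGNAA was in 7 of 16 genes of the ATF4 list and in 4.51% of all genes (3.97% of windows). The sterol element TCACNCCAC, searched on both strands, was in 1 of the 15 sterol synthesis genes and in 1.44% of all genes (1.24% of windows). It was in neither of the printed windows of Msmo1 and Lss. A match is a match of letters only. The lists were not compared by a test.

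The libraries within a set were close. The standard deviation of log2 differences over genes was 0.119 between replicates 2 and 3 and 0.147 between replicate 1 and day 20, against 0.317 to 0.344 between libraries of different sets. Replicate 1 and day 20 lay 0.143 to 0.239 from the libraries of days 0 to 12, and replicates 2 and 3 lay 0.306 to 0.363 from them. Reads in genes numbered 42486438 and 40576755 in replicates 2 and 3, and 34903984 and 28924245 in replicate 1 and day 20, so the first set is also the deeper one. The part of depth, culture and day in the results below was not tested. Sdhc, the floxed gene, was at 50.1 and 47.5 FPKM in replicates 2 and 3 and at 50.5 and 54.7 FPKM in replicate 1 and day 20, and had been at 90.5 FPKM on day 0. The FPKM of a whole gene does not show which exons were read. In these bulk libraries fewer cells of a type and less RNA per cell cannot be told apart.

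The cells had the RNA of fibroblasts in all 4 libraries. Col1a1, a fibrillar collagen, was at 920 and 917 FPKM in replicates 2 and 3 and at 966 and 905 FPKM in replicate 1 and day 20. The 10 fibroblast markers summed to 3898 and 3981 FPKM in the first set and to 3963 and 3964 FPKM in the second, and most of each sum was Vim, S100a4 and Col1a1. Members differed in both directions, with Dcn at 4.49 and 5.01 FPKM in replicates 2 and 3 against 2.74 and 2.66 FPKM in replicate 1 and day 20 (0.63), Col3a1 at 0.41 and S100a4 at -0.30, and Thy1 and Fap were below the filter. None of 6 endothelial markers, 1 of 8 macrophage markers (Cd68), 1 of 6 skeletal muscle markers (Acta1), 3 of 7 adipocyte markers and 3 of 12 mesothelial and epithelial markers passed it. The mesothelial and epithelial markers summed to 125 and 129 FPKM in replicates 2 and 3 and to 117 and 118 FPKM in replicate 1 and day 20, nearly all of it Msln.

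In 191 of the 12357 genes (1.55%) the sets did not overlap and differed by at least 1 log2, and these are called parted genes below. Of them 110 (0.890%) were higher and 81 (0.655%) lower in replicates 2 and 3. With the limit at 0.5 log2, 612 genes (4.95%) were higher and 436 (3.53%) lower, 8.48% in all. Non-overlap alone held for 77.3% of genes, with 40.1% higher and 37.1% lower, so it says little about any list. Rassf2 (-1.004) and Ly6c1 (-1.01) lay just inside the limit of 1, and Aoc3 (-0.998) and Fibin (0.99) just outside it. Against the other 6 ctl libraries, replicates 2 and 3 lay outside the whole range in the same direction for 171 of the 191. These genes were chosen as lying beyond replicate 1 and day 20, so that count is partly fixed by the choice. Over all genes 24.2% lay above that range and 25.7% below it. The mean of replicate 1 and day 20 was the closer one to that of days 0 to 12 for 170 of the 191 (89.0%). The same held for 72.6% of all compared genes and for 78.2% of the 9546 whose sets did not overlap.

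The parted genes with the largest difference among those reaching a mean of 5 FPKM in the higher set were led by Rps4l, a gene like that of ribosomal protein S4. It was at 14.1 and 14.7 FPKM in replicates 2 and 3, against 2.22 and 2.42 FPKM in replicate 1 and day 20, and it shares sequence with near-identical copies, so its counts are uncertain. Ccbe1, a secreted protein of lymphatic growth, was at 17.0 and 17.5 FPKM in replicates 2 and 3, against 3.35 and 2.99 FPKM in replicate 1 and day 20, a difference of 2.13. Cxcl5, a neutrophil chemokine, was at 6.21 and 6.46 FPKM in replicates 2 and 3, against 0.952 and 0.689 FPKM in replicate 1 and day 20. Both sets were tight in each of these 3 genes. Also higher in replicates 2 and 3 were the chemokine Cxcl14 (1.89), the receptor ligand Alkal1 (1.75), Trib3, the cell-surface proteoglycan Gpc3 (1.66), the NADPH oxidase subunit Cyba (1.57), the ligand Wnt16 (1.45), the secreted protease Klk10 (1.44) and Fos.

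Lowest against the second set were Stk32b, a kinase, at 1.07 and 1.12 FPKM in replicates 2 and 3, against 10.0 and 10.5 FPKM in replicate 1 and day 20, and Ankrd1, described with its list below. The serpins Serpinb6b (-1.86), Serpinb1a (-1.83) and Serpinb9b (-1.43) were lower too. Loxl2, which crosslinks collagen, was at 50.3 and 45.4 FPKM in replicates 2 and 3, against 124 and 131 FPKM in replicate 1 and day 20. Lower as well were the ligand Gdf7 (-1.57), the transcription factor Pax9 (-1.50), the glutamate transporter Slc1a3 (-1.42), the peptidase Enpep (-1.41) and Rab6b (-1.39).

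Sterol synthesis genes were higher in replicates 2 and 3 almost throughout, by moderate amounts. Of 20 genes on the list 19 were compared, since Hmgcs1 is listed at 0 in every library, as a failed estimate can be. Their median difference was 0.46, against 0.01 over all genes. None reached 1 log2, 8 exceeded 0.5 and none was lower by 0.5, where 4.95% of all genes were higher and 3.53% lower by 0.5. All but Ebp lay above every one of the other 6 ctl libraries in both replicates. Msmo1, a C4-methyl sterol oxidase, was at 142 and 135 FPKM in replicates 2 and 3, against 69.6 and 79.8 FPKM in replicate 1 and day 20, a difference of 0.89. Days 0 to 12 had ranged from 59.1 to 76.8 FPKM for it. The sets were well apart in it.

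The differences followed no single step of the pathway. Lss, which closes the sterol ring, was at 23.7 and 22.6 FPKM in replicates 2 and 3, against 13.4 and 14.1 FPKM in replicate 1 and day 20 (0.71). Dhcr7, the last enzyme to cholesterol, differed by 0.64, Fdps by 0.59, Idi1 and Cyp51 by 0.55 and Hsd17b7 by 0.54. Sc5d, Nsdhl, Sqle, Mvd, Tm7sf2, Acat2, Fdft1, Pmvk and Mvk were between 0.18 and 0.49. Ebp, the isomerase, was at 26.7 and 26.0 FPKM in replicates 2 and 3, against 27.8 and 27.1 FPKM in replicate 1 and day 20. Summed over the list, expression was 932 and 917 FPKM in replicates 2 and 3 and 649 and 679 FPKM in replicate 1 and day 20.

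**Figure D1:**
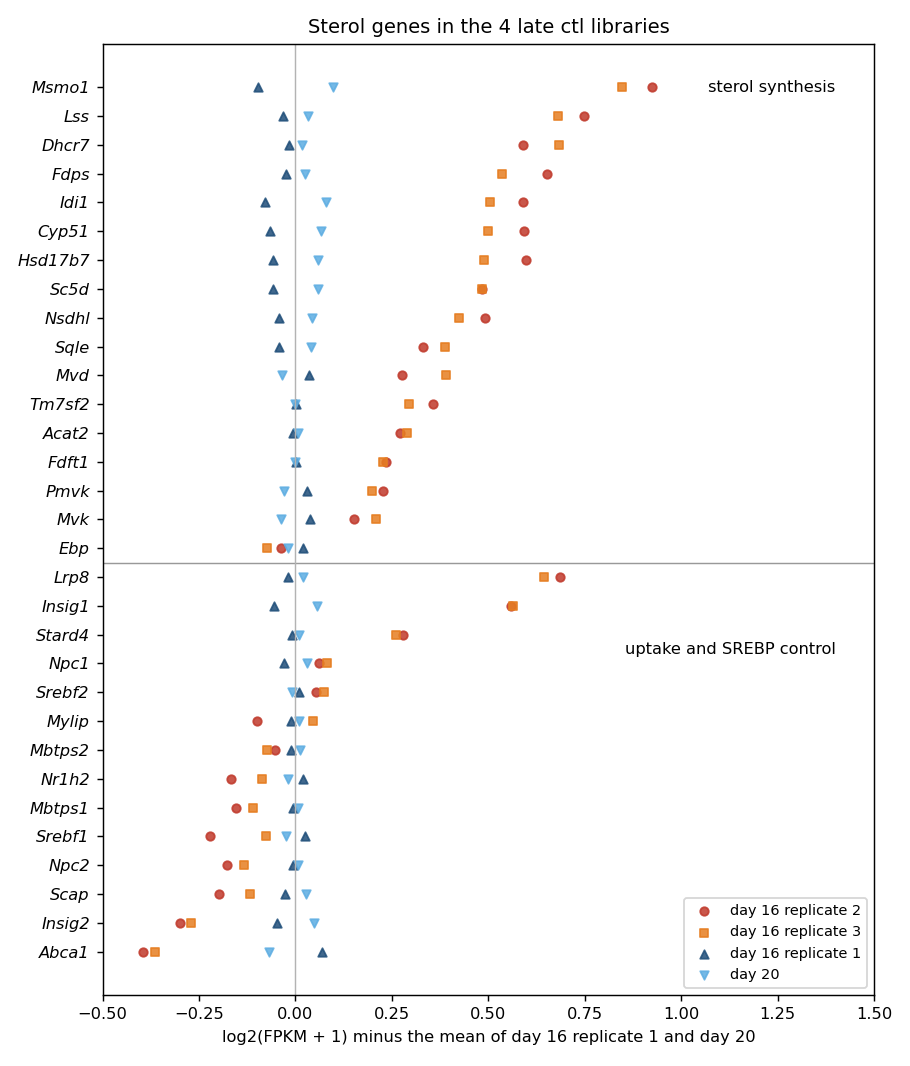
Log2(FPKM + 1) of each sterol gene in the 4 late ctl libraries, minus the mean of day 16 replicate 1 and day 20 (x axis), 1 gene a row. The red circles and orange squares (replicates 2 and 3) lie right of the blue triangles for every sterol synthesis gene shown but Ebp, and Msmo1 lies farthest right.

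Genes of sterol uptake and of SREBP control went in both directions, with a median of -0.04 over 16 compared of 18. Insig1, an SREBP target that holds SREBP back, differed by 0.56 and the receptor Lrp8 by 0.67. The sterol transfer protein Stard4 differed by 0.27. Srebf2, which encodes SREBP-2, was at 105 and 107 FPKM in replicates 2 and 3, against 102 and 101 FPKM in replicate 1 and day 20. Abca1, which exports cholesterol, was lower at 7.44 and 7.61 FPKM in replicates 2 and 3, against 10.6 and 9.58 FPKM in replicate 1 and day 20. Insig2 (-0.28), Scap (-0.16), Npc2 (-0.16), Srebf1 (-0.15), Mbtps1 (-0.13), Nr1h2, Mbtps2 and Npc1 (0.07) differed little, Mylip overlapped, and Nr1h3 and Abcg1 were below the filter. Of 16 compared fatty acid synthesis genes, the median was 0.18 and none reached 0.5, with Scd1, the stearoyl-CoA desaturase, the highest at 0.43.

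Genes of the ATF4 response formed the second group higher in replicates 2 and 3. Of 18 genes on that list, 16 were compared, with a median of 0.48, 2 above 1 log2, 8 above 0.5 and none lower by 0.5. Among all genes, 0.890% were higher by 1 log2, 4.95% higher by 0.5 and 3.53% lower by 0.5. Trib3, a pseudokinase that restrains ATF4 signalling, was at 33.9 and 32.4 FPKM in replicates 2 and 3, against 9.96 and 9.54 FPKM in replicate 1 and day 20. Chac1, which degrades glutathione, was at 25.3 and 23.2 FPKM in replicates 2 and 3, against 9.99 and 10.0 FPKM in replicate 1 and day 20. Asns, asparagine synthetase, was at 53.4 and 48.9 FPKM in replicates 2 and 3, against 28.6 and 29.9 FPKM in replicate 1 and day 20. All 3 genes, whose windows are printed above, stood clear of the other 6 ctl libraries. Vldlr (0.74), Stc2 (0.67), Atf5 (0.62), Gpt2 (0.61) and the stress factor Ddit3 (0.57) followed. Ddit4 and Cebpb overlapped between the sets. Fgf21 and Gdf15 were below the filter.

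Amino acid transporters and the serine pathway were higher as well. Over 13 transporters the median was 0.29, with 5 above 0.5 and none lower by 0.5, against 4.95% and 3.53% of all genes. Slc38a1, a glutamine transporter, was at 14.03 and 12.95 FPKM in replicates 2 and 3, against 5.66 and 5.13 FPKM in replicate 1 and day 20. Slc7a11, the cystine transporter, was at 2.69 and 2.31 FPKM in replicates 2 and 3, against 0.655 and 0.693 FPKM in replicate 1 and day 20. The glycine transporter Slc6a9 differed by 0.93. Of 11 serine, glycine and folate enzymes 8 were higher and 3 lower without overlap of the sets, with a median of 0.37. Over all genes 40.1% were higher and 37.1% lower in that sense. The mitochondrial enzymes Aldh1l2 (0.69) and Mthfd2 (0.55) led, and Tyms and Shmt1 were among the lower 3. Cytosolic aminoacyl-tRNA synthetases had a median of 0.23 over 20 genes, and Cars alone exceeded 0.5, at 0.59. Chaperones of the endoplasmic reticulum had a median of -0.17 over 20 genes, and Sdf2l1 was at 27.8 and 30.4 FPKM in replicates 2 and 3, against 51.0 and 48.4 FPKM in replicate 1 and day 20.

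Sugar sensing and oxygen-regulated genes were mixed. Txnip, which MondoA switches on when glucose phosphates are plentiful, was at 25.2 and 26.0 FPKM in replicates 2 and 3, against 41.3 and 47.0 FPKM in replicate 1 and day 20. Arrdc4, another MondoA target, differed by -0.70. The median over 16 glycolysis enzymes was 0.17, with only Aldoc above 0.5, at 0.73. Of 21 HIF targets outside glycolysis, 3 were higher by 0.5, namely Adm (0.68), Vegfa (0.67) and Bhlhe40 (0.59), and 4 were lower, namely the carbonic anhydrases Car12 (-0.88) and Car9 (-0.62), Ndrg1 (-0.70) and Ankrd37 (-0.51). Their median was -0.02, and 4.95% of all genes were higher and 3.53% lower by 0.5.

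**Figure D2:**
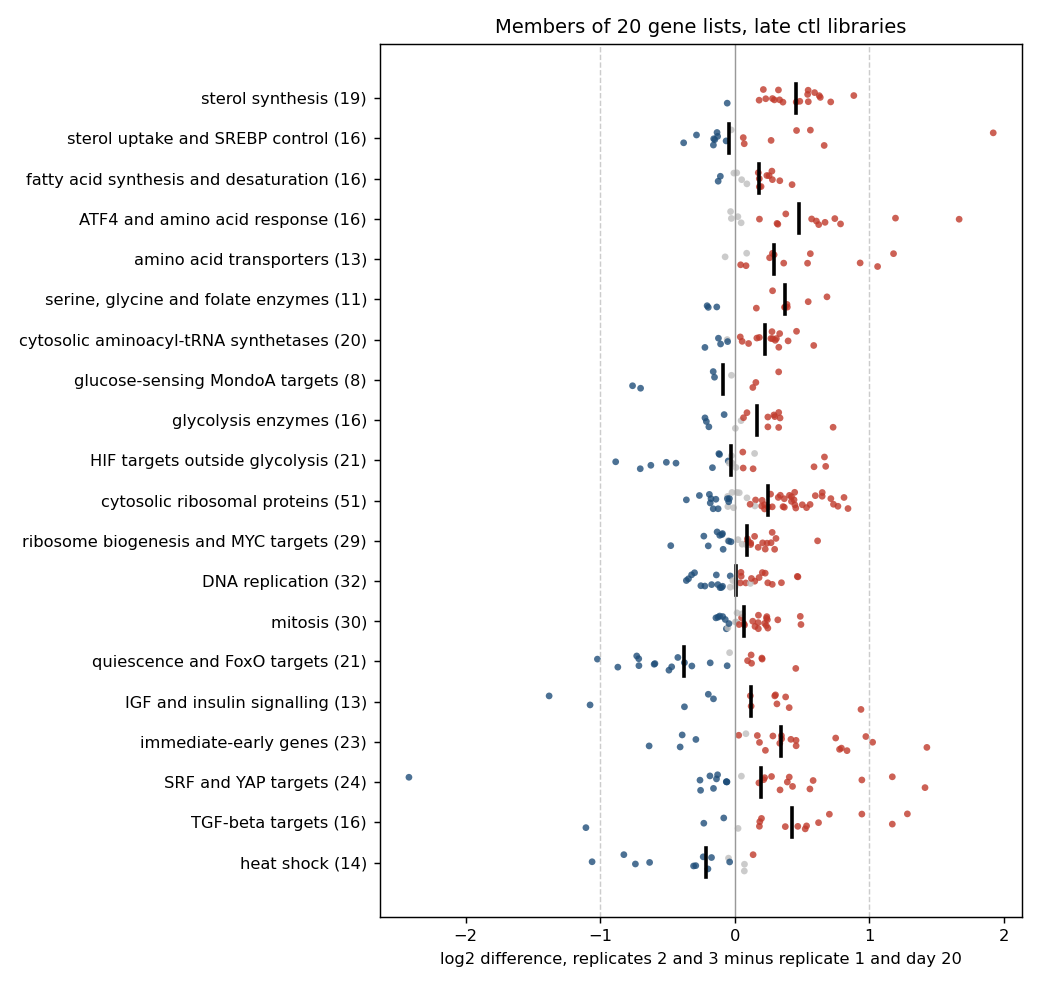
Difference of each compared member of 20 gene lists (x axis, log2, replicates 2 and 3 minus replicate 1 and day 20), with list sizes in brackets, black bars at list medians and dashed lines at 1 log2. Red points are higher and blue points lower without overlap of the sets, grey points overlap, and the sterol synthesis and ATF4 medians stand at 0.46 and 0.48 while that of quiescence genes stands at -0.37.

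Genes linked to quiescence and FoxO factors were lower in replicates 2 and 3, with a median of -0.37 over 21 compared of 22. Sesn3, a stress-responsive sestrin, was at 10.8 and 11.0 FPKM in replicates 2 and 3, against 24.0 and 22.2 FPKM in replicate 1 and day 20. Cdkn1c, the cyclin-dependent kinase inhibitor p57, was at 6.14 and 5.75 FPKM in replicates 2 and 3 against 11.7 FPKM in both libraries of the second set. In all 7 members were lower by 0.5, among them Fbxo32 (-0.73), Pdk4 (-0.71), Klf2 (-0.71) and Gabarapl1 (-0.60), and none was higher by 0.5. Klf9 went the other way at 0.45. At 0.5 log2 the shares of all genes were 3.53% lower and 4.95% higher. The IGF-binding proteins differed in opposite directions. Igfbp4 was at 43.5 and 44.1 FPKM in replicates 2 and 3, against 116 and 115 FPKM in replicate 1 and day 20, and Igfbp7 differed by -1.08. Igfbp3 was higher, at 4.93 and 5.71 FPKM in replicates 2 and 3, against 2.31 and 2.27 FPKM in replicate 1 and day 20.

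Genes of the DNA replication and mitosis lists did not part the sets at either limit. The median was 0.01 over 32 DNA replication genes and 0.07 over 30 mitosis genes, and none of them reached 0.5. Over all genes 8.48% did, in either direction. Pcna, the replication clamp, was at 177 and 178 FPKM in replicates 2 and 3, against 127 and 129 FPKM in replicate 1 and day 20, a difference of 0.47. Mki67, a proliferation marker, was at 117 and 106 FPKM in replicates 2 and 3, against 80.0 and 77.9 FPKM in replicate 1 and day 20. The licensing factor Cdc6 differed by -0.36. None of 19 p53 targets reached 0.5. Cytosolic ribosomal protein genes had a median of 0.25 over 51, with 11 above 0.5, led by Rpl35 (0.84), against 4.95% of all genes. Their reads are shared with processed pseudogenes, so these values are uncertain. Ribosome biogenesis genes had a median of 0.09 over 29, with Fbl alone above 0.5.

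Serum-responsive genes were higher in part. Of 23 immediate-early genes 7 were higher by 0.5 and 1 lower, with a median of 0.35. Among all genes 4.95% were higher by 0.5 and 3.53% lower. Fos was at 31.2 and 12.7 FPKM in replicates 2 and 3, against 7.73 and 5.95 FPKM in replicate 1 and day 20, a difference of 1.43. Replicates 2 and 3 were far apart in Fos, and day 0 stood at 346 FPKM, so both sets were below the first library of the course. Against the other 6 ctl libraries the difference in Fos was -0.94. Egr1 was at 133 and 135 FPKM in replicates 2 and 3, against 76.4 and 72.7 FPKM in replicate 1 and day 20, within the range of days 0 to 12. Dusp4 (0.97) and Dusp6 (0.79), phosphatases that ERK induces, were higher, and Jund (-0.64) was lower.

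Targets of SRF, YAP and TGF-beta held some of the widest gaps. Thbs1, a matrix glycoprotein, was at 371 and 353 FPKM in replicates 2 and 3, against 132 and 138 FPKM in replicate 1 and day 20. Ankrd1, a YAP target, went against it at 1.89 and 1.48 FPKM in replicates 2 and 3, against 11.9 and 14.9 FPKM in replicate 1 and day 20. The 24 genes of the SRF and YAP list had a median of 0.20, with 5 higher and 1 lower by 0.5. On the TGF-beta list of 16 the median was 0.42, with 7 higher and 1 lower. For both lists the shares of all genes at 0.5 were 4.95% higher and 3.53% lower. Id1, an inhibitor of helix-loop-helix factors, was at 76.8 and 84.0 FPKM in replicates 2 and 3, against 32.0 and 32.8 FPKM in replicate 1 and day 20. Tgfbi was the lower one, at 34.8 and 34.5 FPKM in replicates 2 and 3, against 76.5 and 74.9 FPKM in replicate 1 and day 20.

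**Figure D3:**
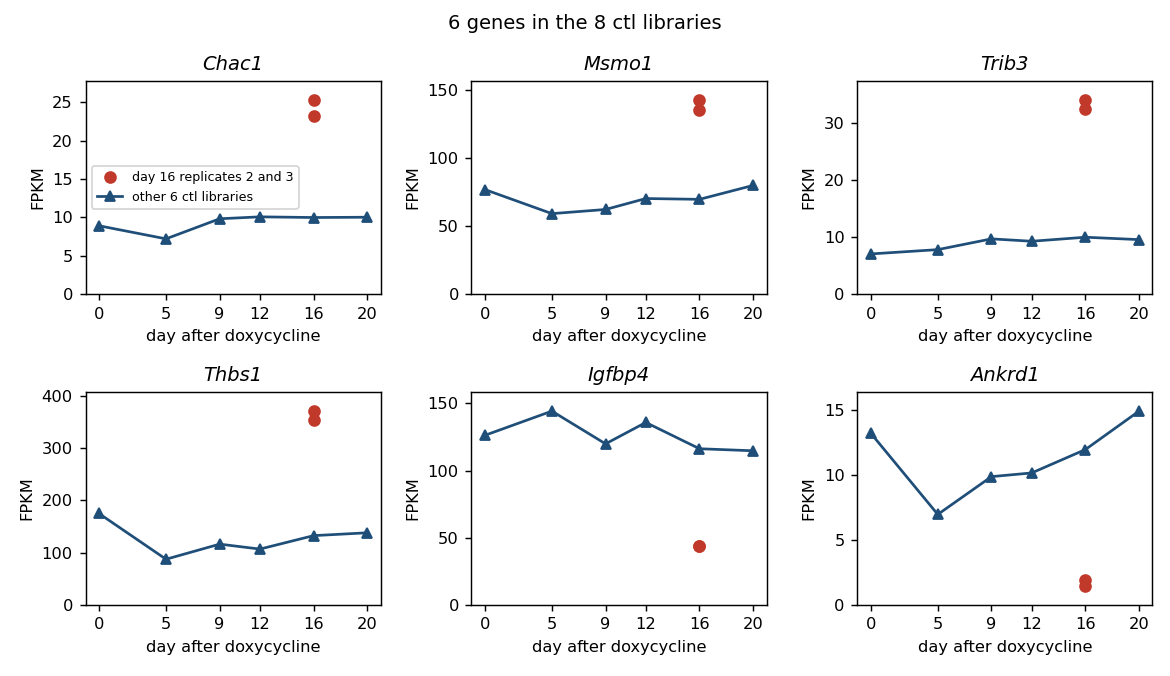
FPKM (y axis, from 0) of 6 genes by day after doxycycline (x axis) in the 8 ctl libraries, with day 16 replicates 2 and 3 as red circles and the other 6 libraries as joined blue triangles. In all 6 genes the red circles lie outside the blue course, above it for Chac1, Msmo1, Trib3 and Thbs1 and below it for Igfbp4 and Ankrd1.

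The same labels were compared in the exp line, where day 16 replicates 2 and 3 were also known to stand apart. There 664 of 12539 genes (5.30%) parted the sets, 1.99% higher and 3.30% lower in replicates 2 and 3. Of the 191 ctl genes 151 (79.1%) had the same sign in exp, against 68.5% of all compared genes, and 118 (61.8%) also did not overlap there in that direction, while 30 (15.7%) did not overlap in the opposite one. Among the 9546 genes that did not overlap in ctl these shares were 57.8% and 17.0%, so the parted genes lay near the background in this respect. Cxcl14 was among those 30, at 7.53 and 6.29 FPKM in exp replicates 2 and 3, against 27.4 and 33.3 FPKM in exp replicate 1 and day 20. Across genes the differences of the lines had Pearson's r of 0.428 and Spearman's rho of 0.488, given as a description over genes that share libraries.

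Whether the set difference itself differed between the lines was tested with limma on the 8 late libraries. The coefficient is the ctl difference minus the exp difference, and 2852 of 12540 genes (22.7%) had an adjusted p under 0.05, with 1453 (11.6%) larger in ctl and 1399 (11.2%) smaller. The p-values measure the spread between 2 close libraries per set, and the ctl side of the coefficient is the value that chose the parted genes. The ctl sets were chosen on the values of these libraries, and the exp sets were known to stand apart. That choice can make the spread within sets too small and the p-values too low, so the calls are best read as a ranking. In Msmo1 the coefficient was 0.54 ± 0.09 (SE, limma adjusted p = 0.00367). Of the 19 sterol synthesis genes 10 had a larger difference in ctl and none a smaller one, with a median coefficient of 0.25. The median difference of that list was 0.46 in ctl and 0.22 in exp, so it too was higher in replicates 2 and 3 of both lines. Of 17 genes of the ATF4 list 4 had a larger and 3 a smaller difference in ctl. Trib3 (1.06, limma adjusted p = 0.00368) and Chac1 (0.81, limma adjusted p = 0.00246) were larger in ctl, and Stc2 (-1.08, limma adjusted p = 0.00355) was smaller. Asns did not pass (0.17, limma adjusted p = 0.566). The median difference of the ATF4 list was 0.48 in ctl and 0.42 in exp, so the list as a whole was higher in replicates 2 and 3 of both lines.

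Over all tested genes 11.6% had a larger and 11.2% a smaller difference in ctl, the shares to set beside the list counts here. Of 16 TGF-beta targets 12 had a larger and 1 a smaller difference in ctl, and of 30 mitosis genes 18 had a larger and 1 a smaller one. The median difference of the TGF-beta list was 0.42 in ctl and -0.37 in exp. That of the mitosis list was 0.07 in ctl and -0.14 in exp, so the larger part of the mitosis gap lay on the exp side. Id1 differed by 1.28 in ctl and by -1.02 in exp, a coefficient of 2.31 ± 0.13 (SE, limma adjusted p = 8.35e-06). The limits on the p-values given above hold for this gene and those that follow. Id2 (1.55, limma adjusted p = 0.00281) and Dusp6 (2.05, limma adjusted p = 5.37e-05) were alike in sign. In Ccn2 the coefficient was 1.65 (limma adjusted p = 0.0135), but with the replicate block the adjusted p was 0.0524 and without ctl day 16 replicate 2 it was 0.0515. Of 30 ribosome biogenesis genes 1 was larger and 15 smaller in ctl. Their median difference was 0.09 in ctl and 0.40 in exp, over the 29 compared in ctl. None of 20 tRNA synthetases and 20 endoplasmic reticulum chaperones passed. Sdhc did not pass (0.31, limma adjusted p = 0.201), but did without exp day 16 replicate 2 (adjusted p = 0.0384).

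**Figure D4:**
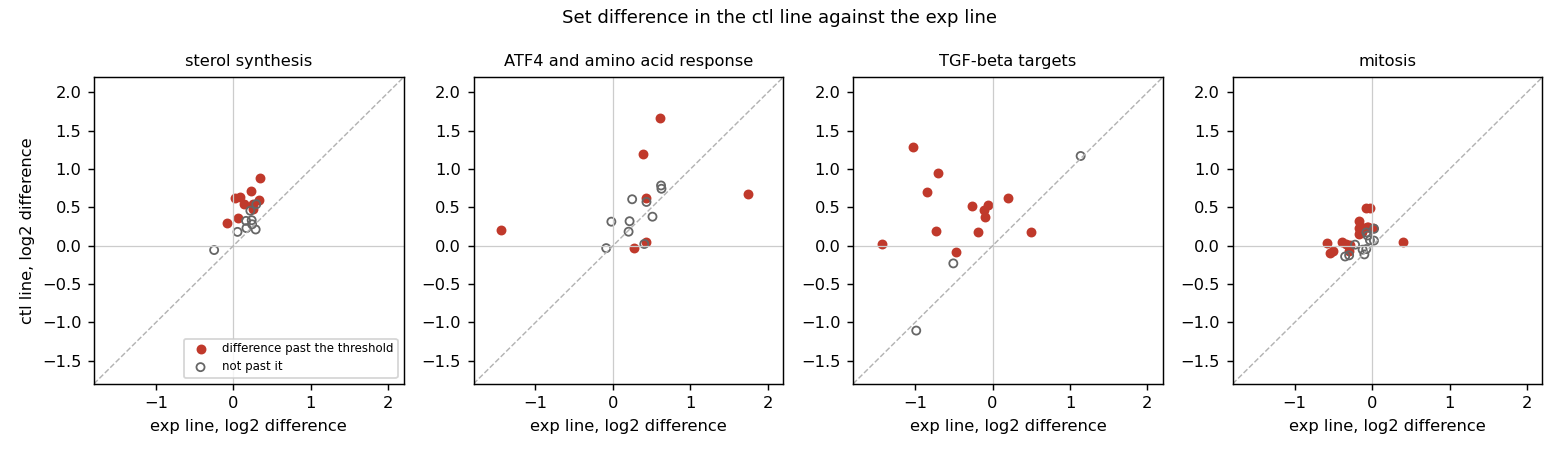
Set difference in the ctl line (y axis, log2) against that in the exp line (x axis, log2) for the members of 4 lists, with filled points where the 2 differences differ at a limma adjusted p under 0.05 and a dashed line where they are equal. All 10 filled sterol synthesis points and 12 of 13 filled TGF-beta points lie above the line. Of all 12540 tested genes, 11.6% passed the threshold above the line and 11.2% below it.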

How the data were processed

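FPKM per gene, 1 table per library, were used as deposited by the authors. Per the submitters' processing notes, Bowtie2 2.2.3 and the mouse build mm9 were used; which counter, annotation and strand rule were used is not given in the sources used here, so overlapping and antisense genes cannot be told apart. Of 24485 gene IDs 24416 matched a symbol.

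Genes averaging at least 1 FPKM were compared between the sets on log2(FPKM + 1), without a test. The interaction was fitted in R 4.3.3 by limma 3.58.1, with statmod 1.5.0 (trend, robust, two-sided, Benjamini-Hochberg, threshold 0.05). Tested on simulated data for this interaction over 12535 to 12540 genes, it recovered 1.5% of 1.5-fold, 81% of 2-fold and 97% of 4-fold changes among 200 changed genes. It called 5, 21 and 22 unchanged genes. The simulation gave all genes the same fixed spread beyond counting error and no line or set effect. That spread was not fitted to these libraries, so these rates need not hold for them. Whole reads were recovered from the FPKM for 18966 of 18966 genes with reads in at least 2 libraries (within 0.02 read of whole, a distance the rule sets), giving 18121520 to 42486438 reads per library. On simulated data the recovery was first found to fail where a relative depth was estimated wrong by a whole factor; a check for this was added, which cured the simulated case, and none of the 16 libraries needed that correction. By counting error alone, a listed 0 allows up to 3 expected reads.

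Named genes are the SDH subunits, the 12 largest differences per direction among parted genes with at least 5 FPKM in the higher set, up to 6 members per list (all in the sterol lists), and the 6 largest interaction coefficients per direction with at least 5 FPKM; small RNAs, RIKEN clones and predicted genes are left unnamed, and some genes that the rule names are not reported here. Named outside it, after their values were seen, were list members at the edges of their lists. The members and lists were chosen with earlier results of these data known. Replicate numbers are shared by the lines: deviations from the day 16 group means correlated 0.379, 0.271 and 0.334 for numbers 1, 2 and 3, but from the means of each line and set only 0.0144 and -0.0111. The first correlations include the difference between the sets, so they do not show a pairing apart from it. The labels name no shared batch, and the replicate block was tried because the numbers are shared. P-values measure only the spread between these samples, which may be technical. Alternatives were other pseudocounts, filters, limits and scalings, each library left out, the replicate block, limma without trend, and, chosen after seeing the data, all 6 other ctl libraries as the second set and limma voom on the recovered reads.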

Additional observations from a re-analysis of the deposited data

Results flagged for a closer look

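The limma test of the difference itself called 2852 genes as differing between the lines (4438 genes at an unadjusted p under 0.05), with the limits on its p-values given above. The largest coefficients (ctl difference minus exp difference, log2) were those of Upk3b (4.15), Bnc1 (4.10), Cxcl14 (3.87), Lrrn4 (3.82), Vat1l (3.77) and Krt18 (3.74). Upk3b, a uroplakin of mesothelium, was at 0.220 and 0.242 FPKM in ctl replicates 2 and 3 and at 0.211 and 0.136 FPKM in ctl replicate 1 and day 20, whereas in exp it was at 22.9 and 28.0 FPKM in replicates 2 and 3 and at 455 and 433 FPKM in replicate 1 and day 20. Lrrn4, Vat1l and Krt18 were likewise under 1 FPKM in all 4 late ctl libraries, so their coefficients come from the exp side. Cxcl14 was at 5.47 and 5.25 FPKM in ctl replicates 2 and 3 and at 0.675 and 0.758 FPKM in ctl replicate 1 and day 20, and differed by -1.98 in exp.

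In the other direction stood Thbd (-2.44), Arsi (-2.32), Plin4 (-2.31), Stk32b (-2.18) and Slc1a3 (-2.18). Slc1a3, a glutamate transporter, was at 5.80 and 5.89 FPKM in ctl replicates 2 and 3 against 16.9 and 17.7 FPKM in ctl replicate 1 and day 20, and at 19.4 and 20.4 FPKM in exp replicates 2 and 3 against 11.0 and 11.6 FPKM in exp replicate 1 and day 20. Among list members the coefficient was 2.31 in Id1, 1.55 in Id2, 2.05 in Dusp6, 0.54 in Msmo1, 1.06 in Trib3, 0.81 in Chac1 and 1.65 in Ccn2.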

How the results depend on the processing

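The count of 191 parted genes moved with the scale and limits. It was 345 with a pseudocount of 0.1, 56 with 5, 108 at a mean of at least 5 FPKM, 1048 at 0.5 log2 and 7 at 2 log2, and 190 to 211 with 1 library left out. The sterol synthesis median was 0.39 with a pseudocount of 5 and 0.51 against all 6 other ctl libraries, and the ATF4 median 0.30 with a pseudocount of 5, 0.35 with no filter and 0.54 against the 6. The mitosis median was 0.0853 after quantile normalization and 0.0553 to 0.0934 with 1 library left out. The medians of the NF-kB list (-0.22) and of adipocyte markers (0.52) reversed at a mean of at least 5 FPKM, which compares fewer genes. Against the 6 other ctl libraries, which include days of high values, Fos (-0.94) and Fosb (-1.46) reversed. None of the 116 named genes with a difference of at least 0.5 changed sign under the other pseudocounts and scalings or with 1 library left out. The interaction count of 2852 was 2488 with the replicate block, and 1819 to 3507 with 1 library left out, lowest without ctl day 16 replicate 2 and at 1860 without replicate 3. Vat1l lost its call under limma voom (adjusted p = 0.145). The block changed no other call among the named genes than that of Ccn2. Where not shown by the alternative's construction, the cause was not tested. Values near 1 FPKM are the least certain.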

Other observations

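Interferon-stimulated genes in the late ctl libraries had a median of -0.31 over 20 compared of 27. Without overlap 16 were lower and 1 higher, against 37.1% lower and 40.1% higher of all genes. Cxcl10, a chemokine that interferon induces, was at 3.38 and 4.08 FPKM in replicates 2 and 3. It was at 7.87 and 9.24 FPKM in replicate 1 and day 20. Heat shock genes had a median of -0.22 over 14, led by the small chaperone Hspb1 at 16.5 and 18.2 FPKM in replicates 2 and 3, against 37.9 and 36.6 FPKM in replicate 1 and day 20. Hspa1a (-0.63) and Hspa1b (-0.82) are near-identical copies whose reads may be shared. Among NF-kB targets Ptgs2, the inducible prostaglandin synthase, was at 36.7 and 32.8 FPKM in replicates 2 and 3, against 13.95 and 15.44 FPKM in replicate 1 and day 20, while Vcam1, an adhesion molecule, was at 10.3 and 10.8 FPKM in replicates 2 and 3, against 22.7 and 23.7 FPKM in replicate 1 and day 20.

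Clock output genes had a median of 0.21 over 16. Ciart, a repressor of the clock, was at 3.999 and 3.834 FPKM in replicates 2 and 3, against 1.60 and 1.54 FPKM in replicate 1 and day 20, and Hlf, a PAR-domain factor, was at 0.831 and 0.753 FPKM in replicates 2 and 3, against 2.85 and 3.22 FPKM in replicate 1 and day 20. Respiratory complex genes went in both directions. The 37 complex I genes ran from -0.42 to 0.46 with a median of -0.01, with 13 higher and 15 lower without overlap. The 34 genes of complexes III, IV and V ran from -0.43 to 0.59, with 12 higher and 13 lower without overlap. Both pairs of counts lay near the shares of all genes, 40.1% higher and 37.1% lower. Cox6c (0.59) and Atp5l (0.51) exceeded 0.5. The median was 0.03 over 8 succinate dehydrogenase subunits and assembly factors. Lysosome and autophagy genes had a median of -0.13 over 30. Of the cyclins outside the lists, Ccnd2, chosen after its values were seen, was at 19.2 and 18.5 FPKM in replicates 2 and 3, against 6.69 and 6.67 FPKM in replicate 1 and day 20.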
